A study of Mus musculus with 12 samples.

Results

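The tumour suppressor p53, encoded in the mouse by Trp53, and 9 genes that it is known to activate were examined in mouse blastocysts after knockdown of Nampt, the rate-limiting enzyme of NAD salvage. The 10 genes are Trp53, Mdm2, Cdkn1a, Ccng1, Btg2, Plk2, Phlda3, Aen, Perp and Trp53inp1. They were taken by symbol from tables of 24411 genes, all 10 were found, and all 10 were among the 14743 genes with enough reads to be tested. The embryos came from wild-type mice of ICR, an outbred stock, were made by in vitro fertilization and were grown in KSOM medium to 96 hpi. Each library was poly(A) RNA of a pool of 10 blastocysts. The siNampt pools had received an siRNA against Nampt, and the siNT pools a non-targeting siRNA, by electroporation at the one-cell stage between 3 and 6 hpi. The C pools are labelled as controls, and the labels used here do not say whether they were electroporated. Each treatment was combined with the diets labelled HFD and ND, which the labels do not spell out and which stand beside a series title on obese and normal weight mice. Every one of the 6 groups had 2 libraries, 1 in each of the batches named in the labels. The labels do not say that the pools came from separate matings, so a p-value here measures the spread between pools, which may be technical.

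p53 is a transcription factor that is activated by DNA damage and other stresses. It binds as a tetramer to response elements made of paired half-sites and switches on genes that stop the cell cycle, repair DNA or lead to apoptosis. Mdm2, itself a target, marks p53 for degradation and so closes a feedback loop, and mouse embryos without Mdm2 die around implantation unless Trp53 is missing too. Because p53 is controlled mainly through the stability and modification of the protein, the level of its mRNA need not follow its activity. Cdkn1a encodes p21, the inhibitor of cyclin-dependent kinases. Ccng1 encodes cyclin G1, which acts with a phosphatase on Mdm2. Btg2 encodes an antiproliferative protein, and Plk2 a polo-like kinase. Phlda3 encodes a repressor of AKT, Aen a nuclease that promotes apoptosis, Perp a membrane protein of desmosomes and of apoptosis, and Trp53inp1 a cofactor of p53 in apoptosis that also acts in autophagy.

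The stretches around the p53 half-sites next to these genes' starts are shown because they carry the letters that p53 is known to read. RefSeq windows of 300 bases, from 250 bases before to 50 bases after a start, were held for 8 of the 10 genes (build GRCm38.p6). Trp53inp1 and Perp had no entry. An exact match to the p53 half-site consensus, a motif of 10 bases whose reverse complement is the motif itself, was present in 6 of their 10 windows, and in 8.36% of 32851 windows of all genes. The 6 windows belong to 5 genes, and the windows of the 2 starts of Aen hold the same site. Capitals mark the match, and each line reads 5′ to 3′ on the strand of the gene. A half-site with a mismatch is not marked, and binding of p53 was not measured.
Cdkn1a: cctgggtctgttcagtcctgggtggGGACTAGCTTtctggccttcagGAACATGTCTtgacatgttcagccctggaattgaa
Mdm2: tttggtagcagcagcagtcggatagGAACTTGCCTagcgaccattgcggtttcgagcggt
Ccng1: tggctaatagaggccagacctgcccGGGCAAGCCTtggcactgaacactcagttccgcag
Trp53: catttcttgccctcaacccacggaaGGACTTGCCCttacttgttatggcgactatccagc
Aen: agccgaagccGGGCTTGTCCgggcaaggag
The Cdkn1a stretch lies at chr17:29090881-29090962 on the plus strand, with matches that begin at -73 and -51 from the upstream start. The window of the second Cdkn1a start held no match. The Mdm2 stretch is at chr10:117710910-117710969 on the minus strand with its match at -186, and that of Ccng1 at chr11:40755437-40755496 on the minus strand with its match at -185. The Trp53 stretch is at chr11:69580259-69580318 on the plus strand with its match at -75. For Aen the stretch is at chr7:78895927-78895956 on the plus strand. Its match begins at 10 from 1 annotated start and at -121 from the other, inside the first annotated exon. The windows of Btg2, Phlda3 and Plk2 held no exact match, which says only that these letters are not there. All 10 genes are annotated as protein coding in GENCODE M21 (GRCm38). Trp53 spans chr11:69580359-69591873. Wrap53, on the opposite strand, starts 104 bases before the start of Trp53 and runs the other way.

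All 10 transcripts were present in every library. Their levels are compared here in TPM, a transcript abundance scaled by transcript length and library size. Averaged over 12 libraries, Ccng1 was at 113 ± 23.8 TPM (SD, n = 12) and Perp at 87.0 ± 24.5 TPM. Mdm2 followed at 44.2 ± 8.4 TPM, Cdkn1a at 41.4 ± 16.1 TPM, Phlda3 at 33.1 ± 10.5 TPM and Trp53 at 22.2 ± 4.71 TPM. The 4 lowest were Aen at 12.4 ± 3.72 TPM, Trp53inp1 at 11.3 ± 2.72 TPM, Btg2 at 10.2 ± 3.95 TPM and Plk2 at 7.29 ± 3.37 TPM. Perp was above Mdm2, Phlda3 above Trp53, and Trp53 above Aen in 12 of 12 libraries. Ccng1 was above Perp in 11, Cdkn1a above Phlda3 in 10 and Btg2 above Plk2 in 11 of 12 libraries. Mdm2 was above Cdkn1a in 7, Aen above Trp53inp1 in 5 and Trp53inp1 above Btg2 in 8 of 12 libraries, so these neighbours did not differ beyond their spread. Between the highest and the lowest library TPM differed 1.86-fold for Mdm2, 2.25-fold for Trp53, 3.21-fold for Cdkn1a and 4.1-fold for Plk2. The reads behind a level ranged from an expected count of 450 (Plk2 in the ND siNT library of batch 2) to 24443 (Ccng1 in the ND siNampt library of batch 2), and intervals from counting error were not computed for these levels.

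**Figure D1:**
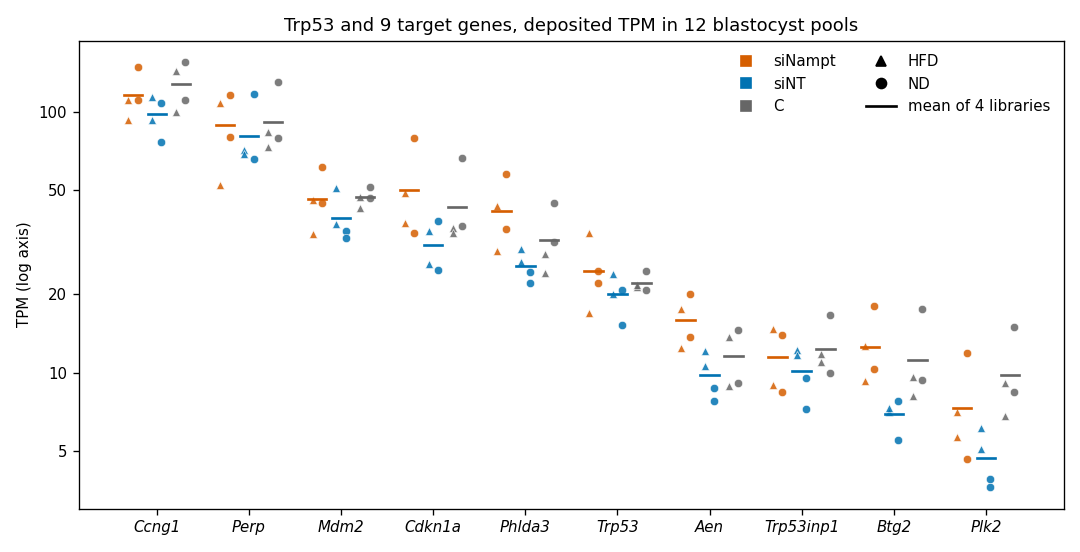
TPM on a log axis of the 10 genes, ordered by mean level, in 12 libraries. Each point is a library, colour gives the treatment (siNampt, siNT, C from left to right within a gene), shape the diet, and the short bar the mean of 4 libraries. Btg2 and Aen are the genes whose siNampt points all lie above their siNT points, which by CPM held for 3.38% of all genes tested.

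Before the comparisons, the libraries themselves need a description, because the 9 targets moved together in a few of them. Relative to each gene's own mean log2 CPM (counts scaled to library size with TMM factors), 9 of 9 targets were above their mean in the ND siNampt library of batch 2, with a median of 0.71. The ND C library of batch 2 also had 9 of 9 targets above their mean, with a median of 0.50. In contrast, 0 of 9 were above their mean in the ND siNT library of batch 1, with a median of -0.45. The first of these libraries held the highest level of 5 targets, the second ranked among the top 2 for 7 targets, and the third held the lowest level of 6. Trp53 mRNA did not share the pattern. It stood at -0.02, -0.15 and 0.08 from its mean in those 3 libraries, and its own extreme of 0.51 was in the HFD siNampt library of batch 2. Over the 36 pairs of targets Pearson's r across the 12 libraries had a median of 0.58 (0.05 to 0.91), and Spearman's rho a median of 0.48. Cdkn1a and Btg2 had the highest r, 0.913. The ND siNampt and ND C libraries of batch 2 were those whose median of the targets lay farthest from the middle of the 12 libraries. Without these 2 the median r was 0.16 (-0.47 to 0.75). Leaving out the most extreme libraries tends to lower r whatever its source, so the drop does not show where the joint variation came from. Between Trp53 and its 9 targets r ranged from -0.64 to 0.24 over 12 libraries. Once those 2 pools were left out, 7 of these 9 values were above 0 (-0.67 to 0.61, median 0.24), against 4 with them. By Pearson's r that median was not below the 0.16 among the targets. By Spearman's rho the medians without those pools were 0.09 for Trp53 with its targets and 0.2 among the targets. Whether Trp53 stayed lower without those pools thus depended on the measure. These correlations describe libraries that share batch, diet and treatment.

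The pools also differed in the summed level of 4 Y-linked genes (Ddx3y, Eif2s3y, Kdm5d and Uty), which only male embryos transcribe. The sum was 63.2 CPM in the HFD siNampt, 84.9 CPM in the ND siNampt and 107 CPM in the ND C library of batch 2. In the other 9 libraries it was between 151 and 402 CPM. Those 3 pools were also the 3 with the highest medians of the 9 targets, where the HFD siNampt library of batch 2 had 0.17. Fewer male embryos and less Y-linked RNA per embryo cannot be told apart in such pools. Trophectoderm markers (7 of 7 with counts, mostly Krt18) summed to 4721 to 6894 CPM in siNampt, 4213 to 5021 CPM in siNT and 4287 to 5128 CPM in C pools. Inner cell mass markers (5 of 5) summed to 103 to 180 CPM and primitive endoderm markers (5 of 5) to 185 to 290 CPM, so the pools carried markers of all 3 blastocyst lineages. Markers of sperm and of oocytes reached at most 2.6 and 5.6 CPM, with Tnp1 at 0 in every library. Those of cumulus or granulosa cells (8 of 8 with counts) summed to 163 to 301 CPM in siNampt, 137 to 211 CPM in siNT and 191 to 284 CPM in C pools, and consisted mostly of Serpine2 (mean 203 CPM). The part of these markers in the results below was not tested. The 4 Y-linked genes entered some fits as a covariate. Their sum was lowest in the HFD siNampt, ND siNampt and ND C pools of batch 2, but 276 CPM in the HFD C pool of batch 2. It was at least 186 CPM in siNT pools. Those fits therefore cannot tell the Y-linked level apart from treatment and batch. Library totals were between 42473129 and 50503064 expected counts. Nampt itself was at 37.7 to 53.9 CPM in siNampt, 49.4 to 74.6 CPM in siNT and 38.2 to 67.0 CPM in C pools. By CPM the siNampt pool had less Nampt than both the siNT and the C pool of its diet and batch in all 4 cases, by less than 1 CPM against C in ND, and the range of siNampt overlapped those of siNT and C. By TPM the ND siNampt pool of batch 1, at 12.45 TPM, was not below its C pool at 12.41 TPM.

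**Figure D2:**
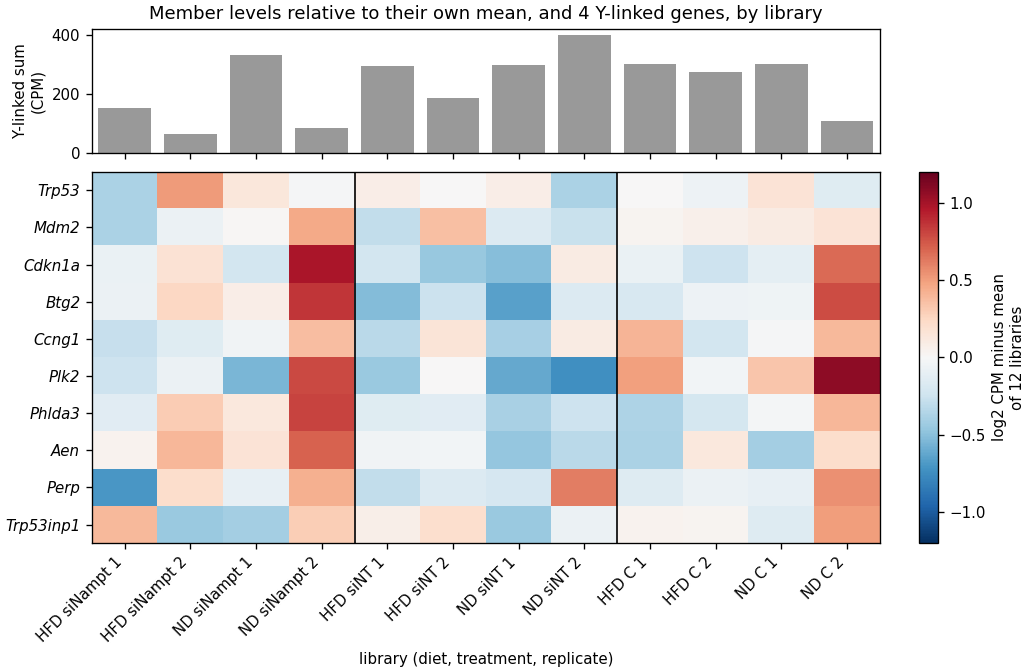
Upper panel, summed CPM of 4 Y-linked genes in each library. Lower panel, log2 CPM of each gene minus its mean over 12 libraries (red above, blue below), with siNampt, siNT and C libraries from left to right. The ND siNampt and ND C libraries of batch 2 are red for all 9 targets and have low bars in the upper panel, while the Trp53 row is near 0 there. The lowest bar is that of the HFD siNampt library of batch 2, where 5 of 9 targets are above their mean.

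The knockdown was compared with the non-targeting siRNA over both diets, 4 libraries against 4. Trp53 mRNA was at 17.0 and 34.2 TPM in HFD siNampt and 24.5 and 22.1 TPM in ND siNampt pools (batch 1, then batch 2, here and below). In siNT pools it was at 23.8 and 20.05 TPM in HFD and at 20.8 and 15.2 TPM in ND. The 2 groups overlapped over most of their range, and the log2 fold change was 0.14 ± 0.17 (SE). Mdm2, the inhibitor, was at 33.95 and 45.9 TPM in HFD siNampt and 44.5 and 61.1 TPM in ND siNampt pools. Its siNT values were 37.0 and 51.2 TPM in HFD and 35.0 and 32.9 TPM in ND. It was higher in siNampt in both ND pairs and lower in both HFD pairs, with a log2 fold change of 0.09 ± 0.17 over both diets.

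Among the targets that restrain the cell cycle, Cdkn1a had 37.4 and 48.7 TPM in HFD siNampt and 34.1 and 79.4 TPM in ND siNampt pools. In siNT pools it had 34.8 and 26.2 TPM in HFD and 24.7 and 38.1 TPM in ND. Pools were paired by diet and batch, and here and below a count of pairs is by log2 CPM, which can order close values otherwise than TPM. Cdkn1a was higher in the siNampt pool in 4 of 4 pairs, although the groups overlapped. Btg2 had 9.26 and 12.7 TPM in HFD siNampt and 10.3 and 18.0 TPM in ND siNampt pools. Its levels in siNT were 7.04 and 7.35 TPM in HFD and 5.52 and 7.82 TPM in ND. All 4 siNampt values of Btg2 lay above all 4 siNT values, which by CPM held for 498 of 14743 genes tested (3.38%). Plk2 had 5.68 and 7.06 TPM in HFD siNampt and 4.66 and 11.9 TPM in ND siNampt pools. It had 5.12 and 6.16 TPM in HFD siNT and 3.93 and 3.64 TPM in ND siNT pools. Its log2 fold change of 0.47 ± 0.29 came largely from 1 pool, since it was 0.13 without the ND siNampt library of batch 2. Ccng1 ranged from 92.9 to 147.7 TPM in siNampt and from 76.15 to 113.6 TPM in siNT pools, with a log2 fold change of 0.08 ± 0.17.

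Among the targets with roles in apoptosis or AKT signalling, Aen had 12.45 and 17.5 TPM in HFD siNampt and 13.7 and 19.9 TPM in ND siNampt pools. In siNT pools it had 12.1 and 10.6 TPM in HFD and 7.76 and 8.76 TPM in ND. As for Btg2, the groups did not overlap, though the lowest siNampt and the highest siNT value were close. Phlda3 had 29.2 and 43.7 TPM in HFD siNampt and 35.5 and 57.45 TPM in ND siNampt pools. It had 29.7 and 26.6 TPM in HFD siNT and 22.0 and 24.4 TPM in ND siNT pools. Phlda3 was higher in siNampt in 4 of 4 pairs by log2 CPM, by as little as 0.01 in 1 of them. Perp ranged from 52.2 to 116 TPM in siNampt and from 65.8 to 117.2 TPM in siNT pools, and Trp53inp1 from 8.46 to 14.7 TPM in siNampt and from 7.29 to 12.2 TPM in siNT pools. Neither was higher in all 4 pairs, with log2 fold changes of -0.01 ± 0.21 for Perp and 0.06 ± 0.21 for Trp53inp1.

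None of the 10 genes passed an adjusted p of 0.05 in edgeR's quasi-likelihood test of siNampt against siNT, and the share of all genes tested that did was 0%. DESeq2 called 1 gene, which was none of the 10. Without a filter on low counts, where 21789 genes were tested, edgeR called Btg2 and Cdkn1a among 119 genes. At an unadjusted p under 0.05 stood 4 of the 10 genes, all higher in siNampt, against 11.2% of all genes (1645 of 14743). In edgeR these were Btg2 (log2 fold change 0.69 ± 0.22, unadjusted p = 0.00627, adjusted p = 0.396), Aen (0.56 ± 0.19, unadjusted p = 0.00991, adjusted p = 0.396), Phlda3 (0.52 ± 0.18, unadjusted p = 0.013, adjusted p = 0.396) and Cdkn1a (0.53 ± 0.23, unadjusted p = 0.0394, adjusted p = 0.431). The log2 fold changes of the 9 targets had a median of 0.47, beside 0.02 over all genes tested. Of 36 differences between pools matched by diet and batch, 29 were above 0. These were 9 genes in the same 4 pairs of pools, so they were not independent, and the matching share of all genes was not computed. Without the ND siNampt library of batch 2 the log2 fold changes were 0.51 for Btg2, 0.40 for Aen, 0.35 for Phlda3 and 0.26 for Cdkn1a, and 1 gene of the 10 stayed under an unadjusted p of 0.05, against 8.13% of all genes. With the mean log2 CPM of the 4 Y-linked genes as a covariate they were 0.27 for Btg2, 0.28 for Aen, 0.17 for Phlda3 and 0.07 for Cdkn1a, and 0 of the 10 genes stood under an unadjusted p of 0.05, against 5.56% of all genes (819 of 14743). With that covariate and the replicate block, a term for batch, they were 0.46 for Btg2, 0.45 for Aen, 0.22 for Phlda3 and 0.20 for Cdkn1a, and 1 of the 10 stood at that p, against 4.19% of all genes. The scale mattered for the background. On log2(TPM + 1) with limma, 1862 of 2012 genes at an unadjusted p under 0.05 were higher in siNampt, against 900 of 1645 with edgeR. The median over all genes was 0.14 with TPM + 0.1.

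The same siNampt libraries were also set against the C pools. Over both diets 0% of genes tested and 0 of the 10 passed the adjusted threshold in edgeR, while DESeq2 called 2 genes, none of them among the 10. At an unadjusted p under 0.05 stood 1 of the 10, against 3.8% of all genes (560 of 14743). That gene was Aen, with 8.86 and 13.6 TPM in HFD C and 9.09 and 14.6 TPM in ND C pools. Its siNampt values overlapped these, were higher in 4 of 4 pairs and gave a log2 fold change of 0.44 ± 0.19 (edgeR, unadjusted p = 0.0344, adjusted p = 0.999). Without the ND siNampt library of batch 2 it was 0.26. Phlda3 had 24.0 and 28.6 TPM in HFD C and 31.65 and 44.5 TPM in ND C pools, and its log2 fold change of siNampt over C was 0.34 ± 0.18, above 0 in 4 of 4 pairs. Cdkn1a had 35.9 and 34.3 TPM in HFD C and 36.4 and 66.3 TPM in ND C pools, with a log2 fold change of 0.19 ± 0.23 that turned to -0.10 without the ND siNampt library of batch 2. Btg2 had 8.11 and 9.59 TPM in HFD C and 9.35 and 17.5 TPM in ND C pools, with a log2 fold change of 0.16 ± 0.21 that turned to -0.04 without that library. Plk2 had 9.13 and 6.82 TPM in HFD C and 8.46 and 14.9 TPM in ND C pools. By log2 CPM it was lower in siNampt in each of the 4 pairs, with a log2 fold change of -0.45 ± 0.28. Over the 9 targets, which again shared 4 pairs of pools, differences were above 0 in 19 of 36 cases. The median log2 fold change of the targets was -0.06. On log2(TPM + 1), 386 of 568 genes at an unadjusted p under 0.05 were higher in siNampt than in C, against 323 of 560 with edgeR.

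The non-targeting siRNA was then compared with C, which uses the same siNT libraries as the first comparison and the same C libraries as the second. All 10 genes were lower in siNT, where 47.8% of all genes tested were higher, and the median log2 fold change of the 9 targets was -0.18, beside -0.01 over all genes. Adjusted p passed for 0 of the 10 and for 0% of all genes in edgeR, and for 2 genes, none of the 10, in DESeq2. Without a filter on low counts edgeR called Plk2 among 76 of 21789 genes. At an unadjusted p under 0.05 stood 2 of the 10, against 4.4% of all genes (648 of 14743). Plk2 had a log2 fold change of -0.92 ± 0.29 (edgeR, unadjusted p = 0.00632, adjusted p = 0.984), and by log2 CPM was lower in siNT in 3 of 4 pairs. Btg2 had -0.53 ± 0.22 (edgeR, unadjusted p = 0.0272, adjusted p = 0.984) and was lower in 4 of 4 pairs. Without the ND C library of batch 2 these were -0.71 for Plk2 and -0.32 for Btg2. The log2 fold changes of Cdkn1a, Phlda3 and Aen were -0.34 ± 0.23, -0.18 ± 0.18 and -0.12 ± 0.19. For Aen that value turned to 0.0047 without the ND C library of batch 2. Placed side by side, siNampt over siNT, siNampt over C and siNT over C were 0.69, 0.16 and -0.53 for Btg2. They were 0.53, 0.19 and -0.34 for Cdkn1a, 0.47, -0.45 and -0.92 for Plk2, 0.52, 0.34 and -0.18 for Phlda3, and 0.56, 0.44 and -0.12 for Aen. By these fold changes the siNT pools had the lowest mean of the 3 treatments for 9 of the 10 genes, all but Perp. The matching share of all genes was not computed. On log2(TPM + 1), 696 of 800 genes at an unadjusted p under 0.05 were lower in siNT than in C, against 357 of 648 with edgeR, and with TPM + 0.1 the median over all genes was -0.11.

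**Figure D3:**
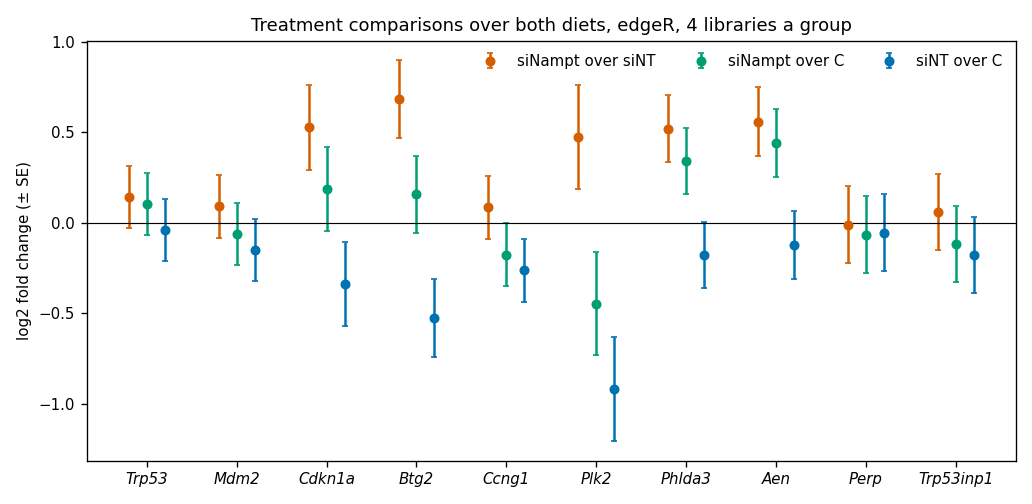
Log2 fold changes from edgeR over both diets, with SE as bars, for siNampt over siNT, siNampt over C and siNT over C (4 libraries in each treatment). The 3 comparisons share libraries. For 9 of the 10 genes, all but Perp, the siNT over C point is the lowest and the siNampt over siNT point the highest. This order only restates that siNT had the lowest mean, since each comparison follows from the others. No point passed an adjusted p of 0.05.

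Within the diets, each treatment had 2 libraries. In HFD, siNampt against siNT gave 0 of 10 genes at an unadjusted p under 0.05, against 4.27% of all genes. In ND it gave 4 of 10, all higher in siNampt, against 8.34%. The adjusted threshold passed 0 of the 10 and 0% of all genes in both diets with edgeR, and DESeq2 called 2 genes in HFD and 0 in ND, none of them among the 10. Without a filter on low counts edgeR called Btg2 and Phlda3 in ND among 108 of 21789 genes. The log2 fold changes of Phlda3 were 0.24 ± 0.24 in HFD and 0.82 ± 0.24 in ND (edgeR, ND unadjusted p = 0.00506, adjusted p = 0.536). Those of Aen were 0.27 ± 0.26 in HFD and 0.85 ± 0.27 in ND (edgeR, ND unadjusted p = 0.00707, adjusted p = 0.536), and those of Btg2 0.48 ± 0.31 in HFD and 0.91 ± 0.31 in ND (edgeR, ND unadjusted p = 0.0126, adjusted p = 0.54). Plk2 had 0.05 ± 0.38 in HFD and 0.95 ± 0.39 in ND (edgeR, ND unadjusted p = 0.029, adjusted p = 0.585), and its ND value was 0.14 without the ND siNampt library of batch 2. Without that library the ND values of Phlda3, Aen and Btg2 were 0.45, 0.56 and 0.47. The difference between the diets' responses was tested directly. It passed the adjusted threshold for 0 of the 10 genes and 0% of all genes, and an unadjusted p under 0.05 for 1 of the 10, against 3.06% of all genes. That gene was Mdm2, with a response of -0.29 ± 0.21 in HFD and 0.47 ± 0.22 in ND and a difference of -0.75 ± 0.30 (edgeR, unadjusted p = 0.0286, adjusted p = 1). In HFD the high siNT value of batch 2 entered this, and without that library the HFD response was 0.07. For the other members a difference between diets was not detected, and their responses differed by -0.90 to 0.13.

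For siNT against C the difference between the diets was not tested. In HFD 0 of 10 genes stood at an unadjusted p under 0.05, against 1.36% of all genes, and in ND 2 of 10, both lower in siNT, against 5.7%. The adjusted threshold passed 0 of the 10 and 0% of all genes in each diet with edgeR, and DESeq2 called 1 gene in HFD and 5 in ND, none of them among the 10. With the filter left out edgeR called Plk2 in ND among 93 of 21789 genes. The log2 fold changes of Plk2 were -0.46 ± 0.38 in HFD and -1.43 ± 0.39 in ND (edgeR, ND unadjusted p = 0.00307, adjusted p = 0.828). Those of Btg2 were -0.26 ± 0.31 in HFD and -0.81 ± 0.31 in ND (edgeR, ND unadjusted p = 0.0224, adjusted p = 0.828). The TPM scale also shifted the background within the diets. At an unadjusted p under 0.05, 553 of 695 genes were higher for siNampt over siNT in HFD on log2(TPM + 1), against 290 of 630 with edgeR, and 1247 of 1415 in ND, against 679 of 1230 with edgeR. For siNT over C in ND, 958 of 1066 genes were lower on log2(TPM + 1), against 427 of 840 with edgeR.

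Over all treatments the diet comparison set 6 HFD against 6 ND libraries. Perp had the largest log2 fold change of the 10 genes. Its lowest, median and highest levels were 52.2, 72.1 and 107.9 TPM in HFD and 65.8, 98.0 and 130.0 TPM in ND. It was lower in HFD in 6 of 6 pairs of the same treatment and batch by log2 CPM, although the groups overlapped, with a log2 fold change of -0.41 ± 0.17 (edgeR, unadjusted p = 0.0319, adjusted p = 1). Cdkn1a at -0.37 ± 0.19 and Btg2 at -0.33 ± 0.18 had means lower in HFD, and without the ND siNampt library of batch 2 these were -0.18 and -0.20. The other members lay between -0.25 and 0.09. In edgeR 0 of 10 genes and 0% of all genes passed the adjusted threshold, and 1 of 10 stood at an unadjusted p under 0.05, against 3.22% of all genes (474 of 14743). DESeq2 called 2 genes, none of the 10, and edgeR with the filter left out called Perp among 99 of 21789. On log2(TPM + 1), 369 of 541 genes at an unadjusted p under 0.05 were higher in HFD, against 254 of 474 with edgeR.

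The targets also differed by batch label. Relative to batch 1, all 9 targets had higher means in batch 2, with log2 fold changes of 0.18 to 0.52 and a median of 0.37, beside 0 over all genes tested. In 46 of 54 comparisons of a target within a group the batch 2 pool was the higher. These were 9 genes in the same 6 pairs of pools, so they were not independent, and the matching share of all genes was not computed. Trp53 was at -0.03 ± 0.14 and by log2 CPM was higher in batch 2 in 1 of 6 groups. Perp had 68.7, 112 and 130.0 TPM (lowest, median, highest) in batch 2 and 52.2, 72.1 and 80.1 TPM in batch 1. By log2 CPM it was higher in batch 2 in 6 of 6 groups, with a log2 fold change of 0.52 ± 0.11 (edgeR, unadjusted p = 0.0003, adjusted p = 0.0515). Btg2 had 7.35, 11.1 and 18.0 TPM in batch 2 and 5.52, 8.68 and 10.3 TPM in batch 1, again higher in batch 2 in 6 of 6 groups, with 0.48 ± 0.13 (edgeR, unadjusted p = 0.00193, adjusted p = 0.134). DESeq2 called Perp and Btg2 among 285 of 14743 genes. With no filter edgeR called Perp among 224 of 21789 genes. With the stricter filter of 5 CPM in 2 libraries it called Perp among 78 of 9091 genes. Aen at 0.37 ± 0.12, Cdkn1a at 0.41 ± 0.16 and Phlda3 at 0.31 ± 0.13 also stood at an unadjusted p under 0.05. Mdm2 at 0.25 ± 0.13, Ccng1 at 0.22 ± 0.13, Plk2 at 0.40 ± 0.21 and Trp53inp1 at 0.18 ± 0.17 did not. Thus 5 of 10 genes did so, against 9.95% of all genes (1467 of 14743), while 0 of 10 and 0.549% of all genes (81) passed the adjusted threshold in edgeR.

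The difference between the batches was not even over the groups. In ND the median over the 9 targets of batch 2 minus batch 1 was 0.69 in siNampt, 0.37 in siNT and 0.65 in C, with 9, 7 and 9 of 9 targets higher. In HFD it was 0.32 in siNampt, 0.13 in siNT and 0.03 in C, with 8, 8 and 5 of 9 targets higher. The Y-linked sum was lowest in 3 of the batch 2 pools, and with the mean log2 CPM of these genes as a covariate 1 of the 10 genes stood at an unadjusted p under 0.05, against 4.7% of all genes (693 of 14743). The log2 fold changes of Perp and Plk2 were then 0.51 and -0.17.

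**Figure D4:**
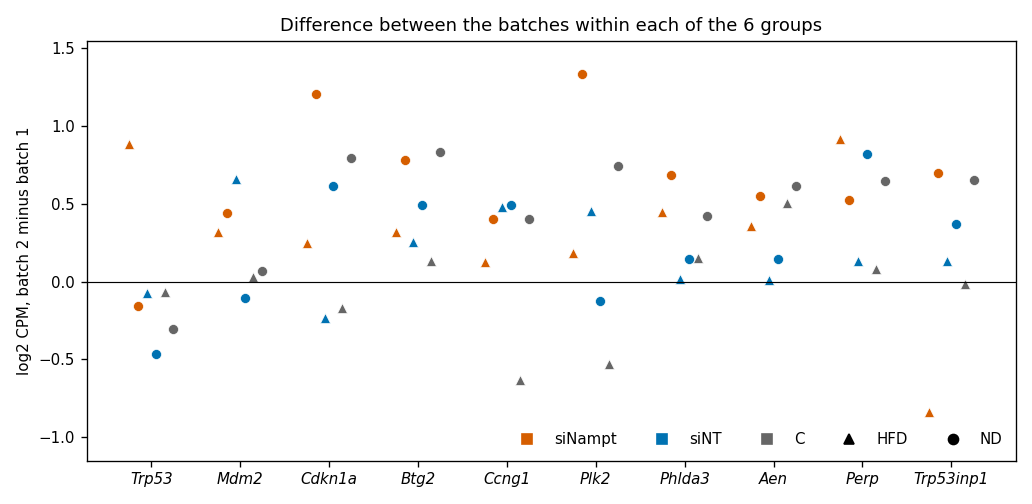
Log2 CPM in batch 2 minus log2 CPM in batch 1 for each gene. Each point is 1 of the 6 groups of diet and treatment (siNampt, siNT, C from left to right, HFD before ND), and points above 0 are higher in batch 2. For Btg2, Phlda3, Aen and Perp all 6 points are above 0, whereas 1 of 6 is for Trp53.

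Other genes of the pathway were taken from lists of textbook p53 targets, regulators and cell-cycle partners. Of 40 further p53 targets 38 were tested, all but Trp53cor1 and Casp1. For siNampt over siNT 2 of 38 stood at an unadjusted p under 0.05, both higher in siNampt, against 11.2% of all genes. They were Bbc3, the apoptotic protein PUMA, at 3.12 ± 1.12 CPM in siNampt and 1.89 ± 0.59 CPM in siNT (SD, n = 4 each), and Bax, the apoptotic pore protein, at 158 ± 13.2 CPM in siNampt and 130 ± 12.6 CPM in siNT. In edgeR their log2 fold changes were 0.73 ± 0.32 (adjusted p = 0.432) and 0.28 ± 0.10 (adjusted p = 0.396). The 38 had a median of 0.15, with 23 above 0. For siNampt over C 0 of 38 stood at that p, against 3.8% of all genes, and the median was -0.07. For siNT over C 3 of 38 did, against 4.4%, all lower in siNT, with 29 of 38 below 0 and a median of -0.13. These 3 were Tap1, the peptide transporter, at -0.62, Ercc5, the repair nuclease, at -0.51, and Sesn1, a sestrin, at -0.39. Between batches 6 of 38 stood at that p, against 9.95% of all genes, 5 of them higher in batch 2, among them Tnfrsf10b, a death receptor, at 0.48 and Tap1 at 0.53, while Gadd45a, a stress-induced growth arrest gene, was at -0.78. For HFD over ND 0 of 38 did so, against 3.22%.

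Of 20 regulators and partners of p53 all but Cdkn2a were tested. For siNampt over siNT 1 of 19 stood at an unadjusted p under 0.05, against 11.2% of all genes. This was Chek1, a checkpoint kinase of the DNA damage response, at 80.1 ± 5.06 CPM in siNampt and 95.3 ± 3.84 CPM in siNT (SD, n = 4 each), with a log2 fold change of -0.25 ± 0.10 (edgeR, adjusted p = 0.396). The median of the 19 was 0.02, that of all genes. The corresponding counts were 2 of 19 for siNampt over C, 0 for siNT over C, 1 for HFD over ND and 1 for batch 2 over batch 1, against 3.8%, 4.4%, 3.22% and 9.95% of all genes. Of the p53 family Trp73 was tested and Trp63 was not. Of 12 cyclins, kinases and partners that p21 binds, 5 stood at that p for siNampt over siNT, against 11.2% of all genes. Ccne2, a cyclin of entry into S phase, was at 15.5 ± 2.22 CPM in siNampt and 22.7 ± 5.21 CPM in siNT, with a log2 fold change of -0.55 ± 0.17. Pcna, the replication clamp, was at 285 ± 16.1 CPM in siNampt and 354 ± 38.0 CPM in siNT, with -0.31 ± 0.10. Cdk1, the mitotic kinase, was at 300 ± 20.7 CPM in siNampt and 371 ± 51.5 CPM in siNT, with -0.31 ± 0.12 (edgeR, adjusted p = 0.396 for each of the 3). Cdk2 and Ccnd3 were higher in siNampt and are named because the count is small. Cdk2 was at 55.2 ± 5.63 CPM in siNampt and 33.9 ± 12.2 CPM in siNT. Ccnd3 was at 77.3 ± 28.3 CPM in siNampt and 50.3 ± 7.8 CPM in siNT. Without a filter on low counts their log2 fold changes were 0.76 and 0.62. In the other comparisons the counts were 3 of 12 for siNampt over C, 0 for siNT over C, 0 for HFD over ND and 2 for batch 2 over batch 1, beside the same shares of all genes as for the regulators. No gene of these lists passed an adjusted p of 0.05 in edgeR with its filter on low counts. Without that filter edgeR called Ccnd3 and Cdk2 for siNampt over siNT, Cdk2 also in ND, Cdk2 for HFD over ND and Ccnd3 between batches. DESeq2 called Tnfrsf10b (adjusted p = 0.022) and Ccnd3 (adjusted p = 0.0181), both higher in batch 2, and no gene of these lists in another comparison.

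Finally, the genes whose log2 CPM followed Trp53 or Cdkn1a most closely over the 12 libraries were sought among 8483 genes that averaged 5 CPM or more. Among the 5 nearest to Trp53 were its neighbour Wrap53 (r = 0.898, rho = 0.909), Bckdk (r = 0.893, rho = 0.881), Grhpr (r = 0.883, rho = 0.881) and Tubg1 (r = 0.883, rho = 0.748). Without the 2 libraries farthest from the median of Trp53, r was 0.759 for Wrap53, 0.865 for Bckdk, 0.635 for Grhpr and 0.717 for Tubg1. Among the 5 nearest to Cdkn1a were Cgref1 (r = 0.944, rho = 0.902), Wdr35 (r = 0.934, rho = 0.944), Sertad1 (r = 0.933, rho = 0.916) and Avpi1 (r = 0.92, rho = 0.867). Without the ND siNampt and ND C libraries of batch 2, r was 0.853 for Cgref1, 0.919 for Wdr35, 0.827 for Sertad1 and 0.743 for Avpi1. None of the 10 genes was among the 5 nearest to Trp53 or to Cdkn1a. With so many genes compared over 12 libraries, high values are found by selection, and these lists are a description.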

How the data were processed

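Per the submitters' processing notes the reads were processed with STAR 2.7.10 and RSEM 1.2.28 on the mm10 build. The kit was SMART-Seq v4 PLUS, per the labels, and no source used here says whether counting used strand. Per the file headers each deposited table holds RSEM's expected counts and TPM per gene, with a length and effective length, 1 table per library. The TPM values were used as deposited by the authors for levels. The deposited expected counts, 9.27% of them not whole, were rounded to whole numbers. Genes were filtered with filterByExpr (minimum count 10), scaled with TMM and tested two-sided by the quasi-likelihood method of edgeR 4.0.16 (R 4.3.3), with Benjamini-Hochberg adjustment over 14743 genes. All 12 libraries entered each fit. The model held diet and treatment, with batch added for the batch comparison, or the 6 group means for comparisons within a diet. The standard error is the absolute log2 fold change over the square root of F. CPM values are TMM-scaled, with a prior count of 2 on the log2 scale.

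All 10 genes are named. From 3 lists of related genes, up to 3 genes of smallest unadjusted p under 0.05 in a comparison could be named. Of the 5 genes nearest in pattern to Trp53 and to Cdkn1a, not all are reported here. The members and lists were chosen with earlier results of these data known. Replicate numbers equal the batch labels, so they pair libraries across groups. Across genes, the difference between replicates correlated between groups with r of -0.058 to 0.22 (15 pairs, median 0.092, 6 above 0.1). The method was tested on simulated data. Results were recomputed without a filter or with 5 CPM in 2 libraries, with RLE size factors, DESeq2 1.42.0, the replicate block, limma 3.58.1 on log2 TPM with a pseudocount of 1 or 0.1, a Y-linked covariate with and without the block, the compared libraries alone, and each library left out in turn.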

Additional observations from a re-analysis of the deposited data

Results flagged for a closer look

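Levels of the 10 genes were screened for a library that stood apart within the 4 libraries of a treatment, by Dixon's 95% critical value. Of 30 such tests 5 did so. The 4 libraries of a treatment differ in diet and batch, and the genes share the same pools. This count therefore cannot be set against a chance rate. The ND C library of batch 2 was the high one for Cdkn1a at 107.9 CPM, for Btg2 at 48.1 CPM and for Perp at 209.9 CPM. The ND siNT library of batch 2 was high for Perp at 220.4 CPM. The HFD siNT library of batch 2 was high for Mdm2 at 162.4 CPM, beside 102.6 to 112.4 CPM in the other siNT pools. All 5 were batch 2 libraries.

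The response of Mdm2 to siNampt over siNT was lower in HFD than in ND by -0.75 (HFD response minus ND response, edgeR, unadjusted p = 0.0286), which fails the correction over all genes (adjusted p = 1). Leaving out 1 library at a time gave -1.06 to -0.4.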

How the results depend on the processing

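Adding the replicate block kept the direction and the call of 47 of 47 gene fold changes it could be applied to; that of Btg2 for siNampt over siNT was 0.67. It changed no call elsewhere. For the batch comparison the block is the comparison itself. Of 1276 values of 60 gene fold changes under all settings, 1231 kept their direction. Many settings left out a library outside the comparison or changed only the scaling, and could hardly turn a sign. Of the 45 that turned, 10 did so with the Y-linked covariate, 9 with that covariate and the block, and 5 without ND siNampt replicate 2.

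Without a filter on low counts edgeR tested 21789 genes. It called 119 for siNampt over siNT, 71 for siNampt over C, 76 for siNT over C and 99 for HFD over ND. Between batches it called 224. Within diets it called 68 and 108 for siNampt over siNT in HFD and ND, 28 and 93 for siNT over C in HFD and ND, and 40 for the difference between the diets' responses. Members called were then 2 for siNampt over siNT (Btg2, Cdkn1a), 2 in ND (Btg2, Phlda3), 1 for siNT over C and 1 in ND (Plk2 in both), and 1 each for HFD over ND and the batches (Perp in both). The cause was not tested. DESeq2 called 1 gene for siNampt over siNT, 2 each for siNampt over C, siNT over C, HFD over ND and siNampt over siNT in HFD, 1 and 5 for siNT over C in HFD and ND, and 285 between batches, 2 of them members. The batches had 1 member (Perp) called with 5 CPM in 2 libraries, 52 genes called on log2(TPM + 1) and 14 with the Y-linked covariate.

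With the Y-linked covariate the members at an unadjusted p under 0.05 were 0 for siNampt over siNT (1 with the replicate block as well) and 1 between batches. Signs that turned with it for siNampt over siNT were -0.10 for Ccng1, -0.15 for Mdm2, -0.13 for Plk2 and -0.11 for Trp53inp1. With the replicate block as well these were -0.02, -0.08, -0.24 and -0.05, and Trp53 was -0.08. In HFD they were -0.06 for Aen, -0.12 for Phlda3 (-0.02 with the block) and -0.50 for Plk2 (-0.63 with the block). For siNampt over C they were -0.18 for Btg2 (-0.02 with the block) and -0.17 for Cdkn1a (-0.07 with the block), and between batches -0.17 for Plk2. Perp for siNampt over siNT, near 0, turned to 0.0039 with 5 CPM in 2 libraries and to 0.12 on both TPM scales.

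Leaving out 1 library at a time, genes called were 48 to 93 between batches (48 without HFD siNampt replicate 2), 0 to 1 for HFD over ND, 0 to 1 for siNampt over siNT in HFD and 0 to 2 for the difference between diets. Members at an unadjusted p under 0.05 were 1 to 5 for siNampt over siNT (1 without ND siNampt replicate 2, 2 without ND siNT replicate 1) and 3 to 7 between batches. Members called between batches were 0 to 1, with Perp called without either HFD C or either HFD siNT library. Fold changes whose sign turned, for siNampt over siNT, ranged from -0.05 to 0.22 for Ccng1, -0.07 to 0.30 for Mdm2, -0.21 to 0.18 for Perp, -0.04 to 0.30 for Trp53 and -0.10 to 0.20 for Trp53inp1. In HFD they ranged from -0.59 to 0.07 for Mdm2, -0.02 to 0.46 for Phlda3 and -0.17 to 0.29 for Plk2. Those of siNampt over C ranged from -0.04 to 0.38 for Btg2 and -0.10 to 0.38 for Cdkn1a, that of siNT over C from -0.23 to 0.0047 for Aen, and that of the batches from -0.17 to 0.06 for Trp53. Where a group kept 1 library, it was assumed to vary like the others.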
